A study of Mus musculus with 6 samples.

Results

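Semaphorins are secreted or membrane-bound guidance proteins, plexins are the receptors that bind most of them, and neuropilins are the co-receptors through which most secreted semaphorins reach a plexin. The 31 genes of these families (20 semaphorins, 9 plexins and 2 neuropilins) were taken by symbol from a table of 23233 usable gene lines, and each had a single line of its own. The table compares whole guts of mouse embryos at E10.5, from 3 wildtype and 3 Ret null samples. Ret is the receptor tyrosine kinase for GDNF family ligands, and the null samples are homozygous. The strain given for all 6 is C57BL/6J, with no other allele or agent named, and the embryos are described as male. The labels do not give which part of Ret the null allele lacks, or whether a sample was 1 embryo or a pool.

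Plexins turn semaphorin binding into collapse or turning of the growing cell edge by acting on small GTPases and the cytoskeleton. In the embryo these families steer axons, migrating neural crest cells and sprouting vessels. In the gut, secreted semaphorins of the mesenchyme are known to time the entry of nerve fibres into the hindgut, and plexins and neuropilins are known on crest-derived cells, extrinsic axons and endothelium.

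The authors deposited 1 FPKM value per genotype (sequenced fragments of a gene, scaled to the length of its transcript and the size of the library) and no value per sample. The spread between the 3 samples of a genotype therefore cannot be shown, and read depth is unknown. Each error after ± is the standard error implied by the authors' test statistic, that is the log2 fold change divided by that statistic. All fold changes are Ret null over wildtype. A gene is said to fall or rise only where the q-value in the authors' deposited table was under 0.05. The smallest q of any tested gene there was 0.000775. Genes that share this value can differ in strength, as do Sema4b and Plxna4 with test statistics of 2.25 and -5.59. Ret itself went from 8.80 to 0.0354 FPKM (q = 0.0042 in the authors' deposited table). Against the label of male embryos, Xist, which is transcribed from the inactive X of female cells, went from 0.136 FPKM in wildtype to 31.8 FPKM in Ret null. The Y-linked genes Ddx3y, Eif2s3y, Kdm5d and Uty fell but stayed between 3.25 and 18.1 FPKM in Ret null. With 1 value per genotype, the sex makeup of the samples and the genotype cannot be told apart.

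Most of the family differed by under 1.2-fold between the genotypes, and a minority moved in each direction. Of 29 tested members, 5 fell (Plxna4, Plxnc1, Sema5a, Sema5b and Sema7a), 3 rose (Nrp2, Sema4b and Sema4f) and 21 did not pass. Among all 13430 tested genes 14.6% were called, 8.88% lower and 5.69% higher, against 27.6% of the tested members. The median log2 fold change was -0.01 for the tested members and 0.01 for all tested genes. Changes under 1.2-fold were held by 19 of the 29 tested members and by 71.5% of all tested genes.

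The calls of the 29 tested members were also read under other rules. A second q was computed by treating the authors' statistic as a standard normal value, with Benjamini-Hochberg adjustment over all tested genes, and is called the normal q below. By it 3 members were lower (Plxna4, Plxnc1 and Sema5a) and 0 higher, against 2.78% and 1.72% of all tested genes. With a q under 0.01 from the authors' deposited table the same 3 were lower, against 6.1% of tested genes, and 2 (Nrp2 and Sema4b) higher, against 3.72%. With a minimum change of 1.5-fold beside q under 0.05, 4 were lower, against 5.23%, and 1 (Sema4f) higher, against 3.4%. At q under 0.1 Plxna2 joined the 5 lower members, against 10.6%, and 3 were higher, against 6.96%. Among genes at 1 FPKM or more 5 of 29 members were lower and 3 higher, against 8.84% and 5.7%. At 5 FPKM or more only 20 members remained, of which 2 were lower and 2 higher, against 7.08% and 4.89%.

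Sema3e and Plxnb3 had not been tested by the authors. Their levels were 0.856 and 0.289 FPKM in wildtype, the lowest of the family.

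Calls went both ways among semaphorins and among their receptors. Of 19 tested semaphorins 3 fell and 2 rose, or 26.3% called. Of 10 tested plexins and neuropilins 2 fell and 1 rose, or 30% called. Among all tested genes 14.6% were called, 8.88% lower and 5.69% higher. The median log2 fold change was -0.01 for the tested semaphorins and 0.02 for the tested receptors. The summed level of the 20 semaphorins was 186 FPKM in wildtype against 177 in Ret null, and that of the 11 receptors was 271 and 284 FPKM. Receptor transcripts were thus more abundant in sum than ligand transcripts in both genotypes, with fewer genes. Members share the same libraries and are not replicates, so the difference between ligands and receptors was not tested.

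**Figure D1:**
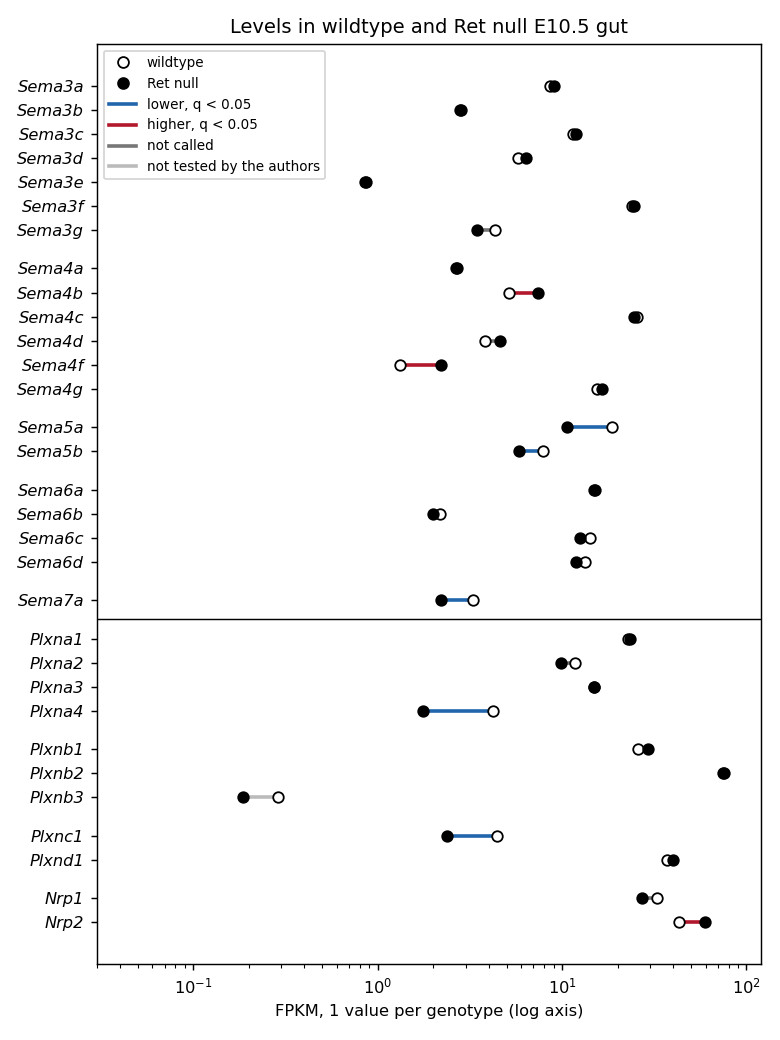
Level of each member in FPKM on a log axis, with open points for the wildtype value and filled points for the Ret null value, semaphorins above the line and receptors below it. Coloured bars join the values of the 8 called members, of which Plxna4 has the widest gap (4.23 and 1.77 FPKM), while most other pairs nearly coincide.

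Calls were spread over the range of levels. From 1 to 5 FPKM (mean of both genotypes) 4 of 9 tested members were called, against 21.5% of all tested genes at that level. From 5 to 20 FPKM 3 of 12 were called, against 14.1%, and from 20 to 100 FPKM 1 of 8 (Nrp2), against 8.18%. The median implied standard error of all tested genes was 0.39 on the log2 scale in the first range, 0.22 in the second and 0.18 in the third, so changes of the scarcer members are the less certain.

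**Figure D2:**
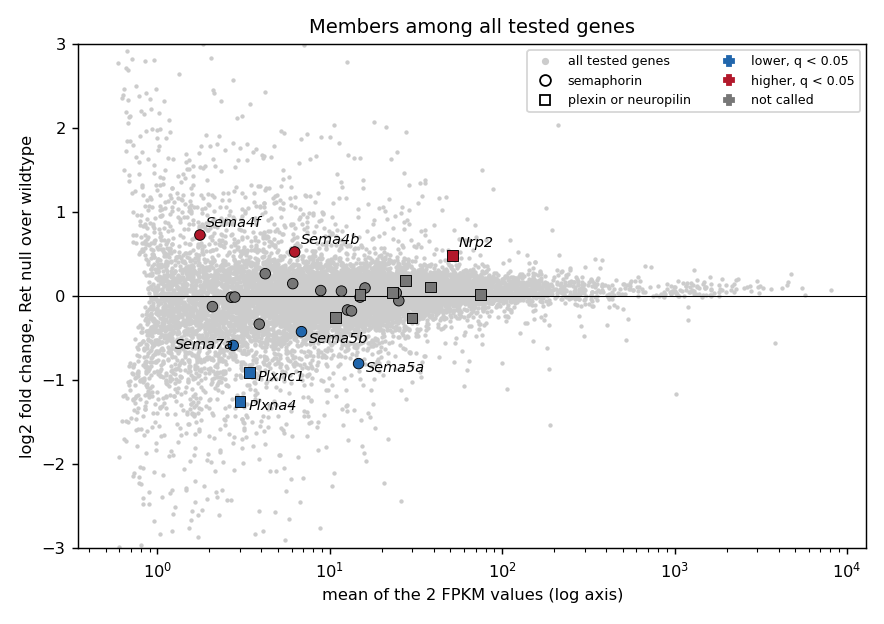
Log2 fold change against the mean FPKM (log axis) for all tested genes in grey, with semaphorins as circles and receptors as squares; 78 genes lie beyond the vertical axis. The called members lie toward the edge of the cloud at their level, and of the uncalled ones Sema3g, at -0.33, lies farthest from 0.

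The Sema3 genes encode the secreted semaphorins, which bind neuropilins and signal through A-type and D-type plexins. None of the 6 tested genes passed in the authors' Cuffdiff test. Sema3f, a ligand of neuropilin 2, was the most abundant at 24.0 and 24.6 FPKM (log2 fold change 0.04 ± 0.18). Sema3c, known for its part in dividing the cardiac outflow tract, stood at 11.4 and 11.9 FPKM (0.06 ± 0.19). Sema3a, the founding collapse factor for axons and a ligand of neuropilin 1, stood at 8.65 and 9.05 FPKM (0.07 ± 0.19), with a 95% interval of the log2 fold change from -0.31 to 0.44. Sema3d was at 5.78 and 6.40 FPKM, Sema3b at 2.82 and 2.80 FPKM, and Sema3e, which binds plexin D1 without a neuropilin, at 0.856 and 0.869 FPKM.

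The lowest Sema3 value of change was that of Sema3g, a ligand of neuropilin 2. It went from 4.34 to 3.44 FPKM (-0.33 ± 0.28, q = 0.197 in the authors' deposited table). It was the only Sema3 gene with an unadjusted p under 0.05 in that table. The summed Sema3 level was 57.8 FPKM in wildtype against 59.1 in Ret null, and Sema3f made up 41.4% and 41.6% of it. The balance of the secreted ligands was therefore nearly the same in both values. Sema3d, Sema3a, Sema3e and Sema3c lie in a row on chromosome 5, from 12383166 to 17730267 (mm10), and Sema3b and Sema3f lie near each other on chromosome 9, from 107598115 to 107710475. Neither group held a called gene.

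The Sema4 genes encode transmembrane semaphorins, several of which signal through B-type plexins. Sema4b rose from 5.13 to 7.38 FPKM (log2 fold change 0.52 ± 0.23, 1.44-fold, q = 0.000775 in the authors' deposited table). Sema4f rose from 1.33 to 2.20 FPKM (0.73 ± 0.39, 1.65-fold, q = 0.0137), which was the largest rise of the family and its least precisely measured one. Both rises rest on how significance was obtained: the normal q was 0.281 for Sema4b and 0.509 for Sema4f.

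The other Sema4 genes did not pass. Sema4c, a ligand of plexin B2, was the most abundant semaphorin of all in wildtype, at 25.6 FPKM, and stood at 24.6 FPKM in Ret null (-0.06 ± 0.18). Sema4g stood at 15.5 and 16.5 FPKM and Sema4a at 2.69 and 2.67 FPKM. Sema4d, the ligand of plexin B1, stood at 3.83 and 4.60 FPKM (0.27 ± 0.25). The summed Sema4 level was 54.0 FPKM in wildtype and 58.0 in Ret null. In that sum Sema4b took 9.49% in wildtype and 12.7% in Ret null.

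Both Sema5 genes fell. They encode transmembrane semaphorins with thrombospondin repeats, known for both attracting and repelling axons. Sema5a went from 18.7 to 10.7 FPKM (-0.80 ± 0.18, 1.75-fold lower, q = 0.000775 in the authors' deposited table), with a 95% interval from -1.15 to -0.46. In wildtype it was the third most abundant semaphorin, and in Ret null 7 semaphorins stood above it. Sema5b went from 7.84 to 5.85 FPKM (-0.42 ± 0.22, q = 0.0121), and its 95% interval from -0.85 to 0.003 includes 0. The normal q was 0.000327 for Sema5a and 0.463 for Sema5b. The summed Sema5 level was 26.5 FPKM in wildtype and 16.5 in Ret null, 0.624 of the wildtype sum. The 250 bases before the annotated start of each gene are shown because these genes moved in the same direction, with capitals marking the GC box GGGCGG or its reverse complement CCGCCC. They are from RefSeq on GRCm38.p6, the Sema5a stretch at chr15:32244563-32244812 and the Sema5b stretch at chr16:35541112-35541361, both on the plus strand.
Sema5a: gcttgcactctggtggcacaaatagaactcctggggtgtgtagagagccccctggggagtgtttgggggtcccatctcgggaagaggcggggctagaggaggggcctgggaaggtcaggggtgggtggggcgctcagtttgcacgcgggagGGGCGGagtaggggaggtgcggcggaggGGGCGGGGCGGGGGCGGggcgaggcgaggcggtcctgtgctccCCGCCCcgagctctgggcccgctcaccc
Sema5b: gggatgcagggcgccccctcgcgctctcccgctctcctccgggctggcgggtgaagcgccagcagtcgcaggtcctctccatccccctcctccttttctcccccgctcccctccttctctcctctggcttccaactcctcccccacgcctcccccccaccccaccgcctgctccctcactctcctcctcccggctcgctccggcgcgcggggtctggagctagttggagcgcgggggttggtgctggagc
The Sema5a stretch holds 5 GC boxes, with overlapping copies counted separately, and 17 CpG dinucleotides. The Sema5b stretch holds 0 GC boxes and 19 CpG.

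The Sema6 genes encode transmembrane semaphorins that bind A-type plexins, on the same or a facing cell. None of the 4 passed in the authors' Cuffdiff test or by the normal q, and 0 had an unadjusted p under 0.05. Sema6a, a ligand of plexins A2 and A4, stood at 15.0 and 14.9 FPKM (-0.01 ± 0.18). Sema6c was at 14.2 and 12.5 FPKM (-0.18 ± 0.20), Sema6d, a ligand of plexin A1, at 13.4 and 11.9 FPKM (-0.17 ± 0.19), and Sema6b at 2.17 and 1.99 FPKM (-0.13 ± 0.36). All 4 log2 fold changes were below 0 and smaller than their implied standard errors. The line of Sema6d starts at 124610296 on chromosome 2, while the annotated gene also has a start farther upstream, so its value may leave out transcripts from there.

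Sema7a, which encodes the semaphorin held to the membrane by a lipid anchor, and Plxnc1, which encodes its plexin, both fell. Sema7a went from 3.30 to 2.20 FPKM (-0.59 ± 0.33, q = 0.0328 in the authors' deposited table). Its 95% interval from -1.24 to 0.06 includes 0, and the normal q was 0.582. Plxnc1 went from 4.46 to 2.37 FPKM (-0.91 ± 0.24, 1.88-fold lower, q = 0.000775), with an interval from -1.39 to -0.44, and its normal q was 0.00587. Of the pair, only Plxnc1 passed under both ways of obtaining q. Their annotated starts are shown in the same way, the Sema7a stretch at chr9:57939862-57940111 on the plus strand and the Plxnc1 stretch at chr10:94944846-94945095 on the minus strand.
Sema7a: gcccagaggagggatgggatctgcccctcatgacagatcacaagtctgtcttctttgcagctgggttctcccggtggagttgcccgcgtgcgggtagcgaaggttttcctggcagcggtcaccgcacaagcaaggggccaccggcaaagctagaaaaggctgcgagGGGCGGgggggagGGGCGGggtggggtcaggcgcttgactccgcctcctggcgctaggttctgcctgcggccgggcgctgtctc
Plxnc1: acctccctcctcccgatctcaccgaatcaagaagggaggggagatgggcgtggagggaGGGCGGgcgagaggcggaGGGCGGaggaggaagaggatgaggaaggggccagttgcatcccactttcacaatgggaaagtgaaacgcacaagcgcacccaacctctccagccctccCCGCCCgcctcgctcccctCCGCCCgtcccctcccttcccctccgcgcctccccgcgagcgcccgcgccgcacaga
The Sema7a stretch holds 2 GC boxes and the Plxnc1 stretch holds 4. The line of Plxnc1 ends at 94944578, short of this start. Among the 32851 promoter stretches that RefSeq gives, 32.7% hold GGGCGG on either strand, and of 37 stretches belonging to the members 27 do. These 37 come from 26 members, since some genes have several starts. The TATA motif TATAAA (either strand) was in 0 of the 37, against 12.4% of all, and TAATTA, the core bound by many homeodomain factors, in 0 against 4.84%. The E-box CAGCTG was in 6 of 37, or 16.2%, against 13.0%. The motif ACAATG, a core bound by SOX factors, was in 5 of 37, or 13.5%, against 10.7%. Such matches describe letters only.

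The A-type plexins are the signalling partners of neuropilins and the direct receptors of Sema6 proteins. Among them 1 of 4 fell. Plxna4, known from sensory and sympathetic axons, had the largest change of the family in either direction. It went from 4.23 to 1.77 FPKM (-1.26 ± 0.22, 2.39-fold lower, q = 0.000775 in the authors' deposited table), with a 95% interval from -1.70 to -0.82. Of all tested genes 2.06% had a lower log2 fold change. The normal q was 2.75e-06. In a whole-gut sample, fewer cells that express a gene and less RNA per cell cannot be told apart.

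The other A-type plexins did not pass. Plxna1 stood at 22.8 and 23.5 FPKM (0.04 ± 0.18), with an interval from -0.31 to 0.39. Plxna3, an X-linked gene, stood at 14.8 and 15.0 FPKM (0.02 ± 0.18). Plxna2 went from 11.7 to 9.81 FPKM (-0.25 ± 0.18, q = 0.0859 in the authors' deposited table), so it would pass only a threshold of 0.1. Plxna4 made up 7.90% of the summed A-type level in wildtype and 3.54% in Ret null. The sum itself was 53.6 and 50.0 FPKM, since Plxna4 was the scarcest of the 4.

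The remaining plexins, Plxnc1 apart, did not pass. Plxnb2, the receptor of several Sema4 proteins, was the most abundant of all 31 members at 74.3 and 75.3 FPKM (0.02 ± 0.19). Plxnb1, the receptor of Sema4d, stood at 25.7 and 29.2 FPKM (0.18 ± 0.18). Plxnb3, an X-linked gene and a receptor of Sema5a, was low at 0.289 and 0.187 FPKM and was not tested. Plxnd1, a receptor of endothelium, stood at 37.0 and 39.8 FPKM (0.11 ± 0.18). It lies 2.16 Mb from Ret on chromosome 6, the nearest of the members to the targeted gene. Plxna1, Sema4f and Plxna4 lie on the same chromosome at 28.8, 35.2 and 85.6 Mb from Ret.

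Neuropilins bind secreted semaphorins and also VEGF. Nrp2, the neuropilin of Sema3f, rose from 42.9 to 59.9 FPKM (0.48 ± 0.18, 1.40-fold, q = 0.000775 in the authors' deposited table), with an interval from 0.12 to 0.84. It was the most abundant member after Plxnb2 in both genotypes, and its span on chromosome 1, 62703317 to 62818692 (mm10), is that of the RefSeq gene. The normal q was 0.139, so the call ended there. Nrp1, the neuropilin of Sema3a, stood at 32.6 and 27.3 FPKM (log2 fold change -0.26, q = 0.658 in the authors' deposited table). Its implied standard error was 9.08, against a median of 0.18 for tested genes from 20 to 100 FPKM, and only 26 of the 13430 tested genes had one over 5. The authors' statistic for Nrp1 was -0.0287, which read as a standard normal value gives p = 0.977, while their Cuffdiff test gave p = 0.320. The 2 disagree, so 9.08 may not be the true error of Nrp1. With that error neither a fall nor a rise of Nrp1 can be read from the table, and its deposited q did not pass either. In the sum of both neuropilins Nrp2 took 56.8% in wildtype and 68.7% in Ret null. These shares rest in part on Nrp1, so the size of their shift cannot be read either.

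**Figure D3:**
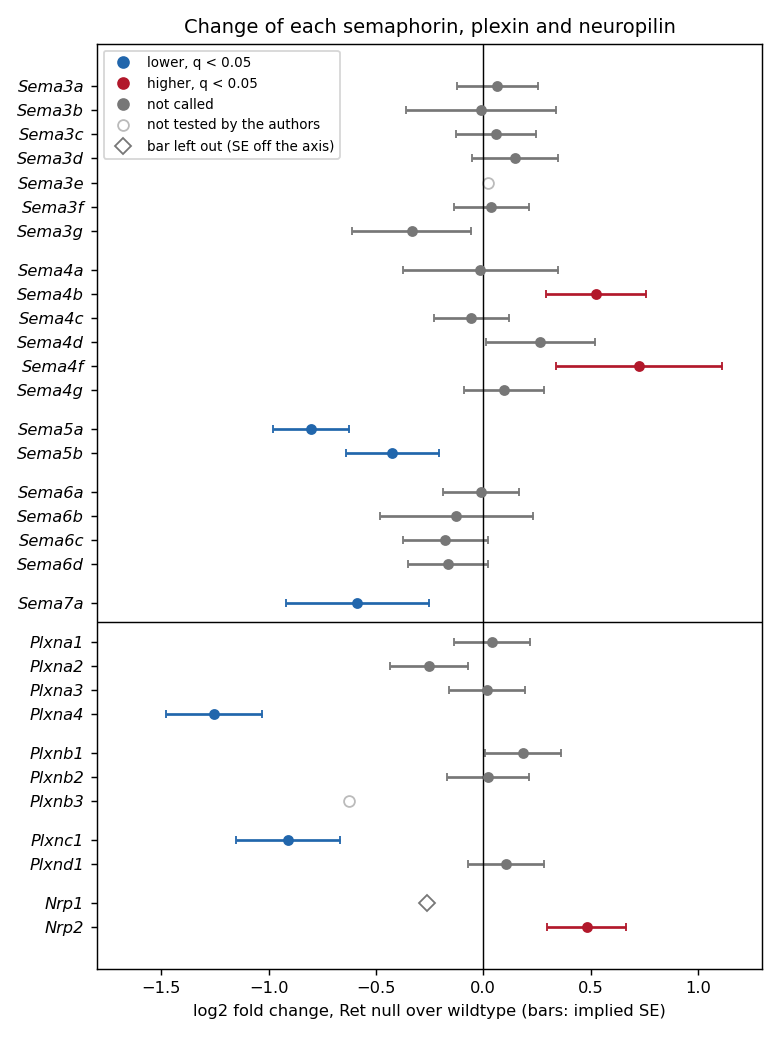
Log2 fold change of each member, Ret null over wildtype, with bars of 1 implied standard error and colours for the authors' call at q under 0.05. Plxna4 at -1.26 and Plxnc1 at -0.91 lie farthest left and Sema4f at 0.73 farthest right; Nrp1 is drawn as an open diamond without its bar of 9.08, and the open circles were not tested.

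Of the known ligand and receptor pairs set side by side here, both partners passed in 1, Sema7a with Plxnc1, which both fell. By the normal q Sema7a did not pass (0.582). The pairs were picked by hand and leave out others named above, such as Sema3a with Nrp1 and Sema3g with Nrp2. The count is therefore not a share of all known pairs. Sema3f stood at a log2 fold change of 0.04 while its receptor Nrp2 rose by 0.48 on that scale. Sema6a stood at -0.01 while its receptor Plxna4 fell by 1.26 on the log2 scale. Sema4d and Plxnb1, at 0.27 and 0.18, and Sema4c and Plxnb2, at -0.06 and 0.02, did not pass on either side. Sema5a fell by 0.80 on the log2 scale, while its receptor Plxnb3 was not tested and 2 other plexins reported for Sema5 proteins, Plxna1 and Plxna3, stood at 0.04 and 0.02.

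**Figure D4:**
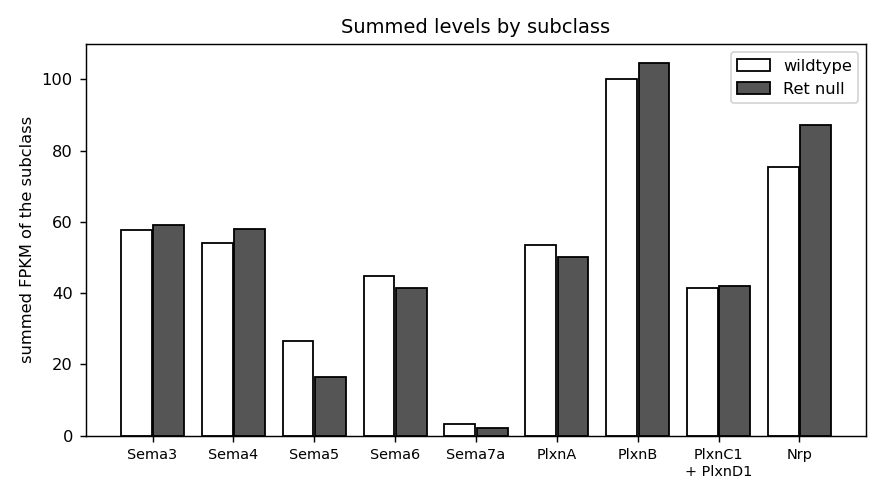
Summed FPKM of each subclass in wildtype (white) and Ret null (grey), without error bars because there is 1 value per genotype. The Sema5 sum drops from 26.5 to 16.5 FPKM, and the B-type plexins hold the highest sum in both genotypes. The neuropilin sum goes from 75.5 to 87.1 FPKM and includes Nrp1, whose change cannot be read.

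Co-receptors and effectors of semaphorin signalling were taken from lists chosen by role. Of 11 tested co-receptor genes 2 fell and 0 rose, or 18.2% called against 14.6% of all tested genes, and by the normal q 1 was lower and 0 higher. In the direction with 0 calls, 0 had an unadjusted p under 0.05. L1cam, the adhesion molecule that partners neuropilin 1 in the response to Sema3a, went from 4.73 to 1.60 FPKM (-1.57 ± 0.30, q = 0.000775 in the authors' deposited table). Nrcam, its relative that partners neuropilin 2, went from 0.923 to 0.491 FPKM (-0.91 ± 0.44, q = 0.00881). The abundant co-receptors Itgb1 (127 FPKM in both values), Ptk7 (69.4 and 74.0 FPKM) and Erbb2 (20.2 and 20.9 FPKM) did not pass and are named after their values were seen. The median log2 fold change of the list was -0.04.

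Of 8 tested VEGF ligands and receptors, which share the neuropilins with semaphorins, 2 fell and 1 rose, or 37.5% called against 14.6% of all tested genes. Kdr, the main VEGF receptor of endothelium, went from 24.1 to 17.4 FPKM (-0.47 ± 0.18, q = 0.000775 in the authors' deposited table). Figf, the gene of VEGF-D, went from 5.79 to 3.20 FPKM (-0.85 ± 0.34, q = 0.00468), and Pgf, a ligand of Flt1, from 6.68 to 9.71 FPKM (0.54 ± 0.33, q = 0.0325). By the normal q 0 of the 8 passed.

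Of 39 tested intracellular effectors 2 fell, 3 rose and 34 did not pass, or 12.8% called against 14.6% of all tested genes. Dpysl3, of the collapsin response mediator family that relays Sema3a to microtubules, went from 35.7 to 22.4 FPKM (-0.68 ± 0.20, q = 0.000775 in the authors' deposited table). Mical2, of the oxidases that disassemble actin downstream of plexins, went from 5.14 to 3.77 FPKM (-0.45 ± 0.23, q = 0.00613). Crmp1, another collapsin response mediator, rose from 21.1 to 30.0 FPKM (0.51 ± 0.19, q = 0.000775). Sh3bp1, a GTPase-activating protein acting on Rac, rose to 29.5 FPKM in Ret null (0.56 ± 0.19, q = 0.000775), and Pak1, a kinase acting below Rac, from 11.6 to 14.9 FPKM (0.36 ± 0.20, q = 0.0299). Among the collapsin response mediators the calls thus went both ways. By the normal q 1 effector (Dpysl3) was lower and 0 were higher.

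**Figure D5:**
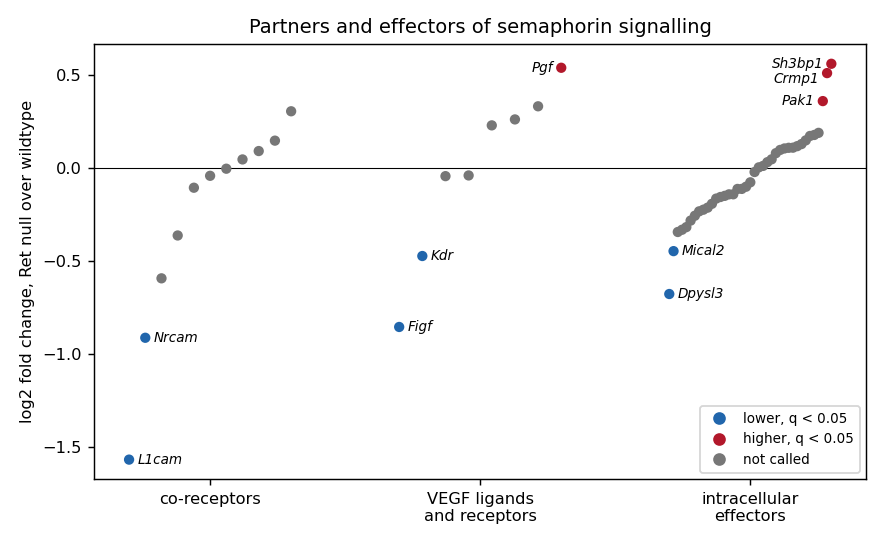
Log2 fold change of each tested co-receptor, VEGF ligand or receptor, and effector, sorted within its list, with called genes in colour and named. L1cam at -1.57 lies lowest, and the uncalled effectors lie between -0.34 and 0.19.

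Markers of most cell types listed, in or near the gut, moved with the genotypes. Their part in the changes above was not tested. Among all tested genes 8.88% were lower and 5.69% higher. Beside the falls of Plxna4, Plxnc1, Sema5a, Sema5b and Sema7a, 12 of 12 neuronal markers fell, and their summed level went from 199 to 101 FPKM. The most abundant of them by mean FPKM were Gap43 (43.5 and 23.3 FPKM), Uchl1 (37.3 and 26.9 FPKM) and Nefm (23.8 and 14.0 FPKM). Of 10 enteric crest markers 9 fell, with a summed level of 91.1 and 43.0 FPKM, while Ednrb stood at 18.8 and 17.5 FPKM. That list includes Ret, the targeted gene, whose own fall (8.80 to 0.0354 FPKM) follows from the genotype and counts in the 9 and in the sums. All 8 tested somite and muscle markers fell, from a sum of 85.8 to 7.73 FPKM over 10 genes, and 6 of 7 tested nephric and gonadal markers fell and 1 rose, with sums of 92.8 and 69.3 FPKM.

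Beside the rises of Nrp2, Sema4b and Sema4f, 8 of 10 gut mesenchyme markers rose (summed level 352 and 802 FPKM). The most abundant of that list by mean FPKM were Acta2, Foxf1 and Actg2. In gut epithelium 10 of 10 markers rose (118 and 266 FPKM), and Krt8, Epcam and Krt18 were the most abundant by mean FPKM. All 10 hepatic markers also rose, from a sum of 30.6 to 342 FPKM. Of 10 endothelium markers, given because Kdr, Plxnd1 and Nrp1 are known from vessels, 2 fell and 8 did not pass. That is 20% called against 14.6% of all tested genes, with sums of 245 and 213 FPKM. By the normal q 8 neuronal, 7 enteric crest (Ret among them), 8 somite and muscle, 4 nephric and gonadal and 0 endothelium markers were lower. By the same rule 7 gut mesenchyme, 10 gut epithelium, 10 hepatic and 1 nephric and gonadal markers were higher. Among all tested genes the normal q gave 2.78% lower and 1.72% higher. None of the markers in these lists was listed at 0 in either genotype.

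Overlaps with other annotated exons were short. In GENCODE M21, exons of 7 members share bases with another gene, and the labels' protocols do not say that counting used strand. Among the called members this concerns Plxna4, with 110 of 14103 exon bases under the antisense gene Plxna4os3, and Plxnc1, with 115 of 8349 under Gm48718. The longest shared stretch was 970 bases of Plxna1 under the antisense gene Gm26811.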

How the data were processed

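Polyadenylated RNA of dissected guts from mouse embryos at E10.5 was prepared with the TruSeq kit, per the labels' protocols, from 3 wildtype and 3 Ret null samples. The submitters' processing notes name Picard, TopHat2, Cufflinks, Cuffdiff and mm10. Their versions and settings were not given in the sources used here. What the authors deposited is 1 table with an FPKM value per genotype, made from the libraries of that genotype. The columns are headed w and h, taken to mean wildtype and homozygous null, and Ret is low in the latter. The test statistic, a score, and the p-values and q-values are the authors' results per the file headers. Of 23234 lines 1 held 2 records run together and was left out.

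Log2 fold changes were computed from these FPKM values, with no pseudocount unless stated. The implied standard error is that value divided by the authors' statistic, and intervals are at 95% under a normal distribution. The deposited q-values differed by at most 5.94e-05 from a Benjamini-Hochberg adjustment of the p-values. The labels do not tie the samples to separate litters, so q may measure technical spread only. The median log2 fold change of tested genes at 1 FPKM or more was 0.01, and no rescaling was applied. Starts were raised by 1 to count from 1. Promoter sequences and gene spans are from RefSeq tables on GRCm38.p6, the build named mm10 elsewhere, and 26 of the 31 members had a promoter entry. Python 3.11.15 was used with numpy 2.4.6, scipy 1.17.1 and pandas 2.3.3. The adjustment and the normal q were tested on data simulated with normal errors. Such data cannot show whether the authors' statistic follows a standard normal distribution.

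The members, lists and tests were chosen with earlier results of these data known. All members are reported. From each pathway list up to 6 called genes by smallest q, and from each marker list up to 3 genes by level, are named. Alternatives were q thresholds of 0.01 and 0.1, minimum levels of 1 and 5 FPKM, a 1.5-fold minimum, the normal q, recentring and other pseudocounts.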

Additional observations from a re-analysis of the deposited data

How the results depend on the processing

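No paired analysis was possible because the table holds 1 value per genotype, and for the same reason no sample could be left out. The calls of Plxna4, Plxnc1 and Sema5a held at q under 0.01, with a 1.5-fold minimum and by the normal q, and the other calls each ended under at least 1 of these. At q under 0.01, 3 members were lower (1 semaphorin), 1 semaphorin (Sema4b) was higher and 0 VEGF partners were higher. At q under 0.1, 2 VEGF partners were higher and 4 effectors lower, and Plxna2 joined the members that were lower. With at least 5 FPKM, 2 members were lower (Sema5a and Sema5b), 1 semaphorin was higher and 0 plexins and neuropilins were lower, because Plxna4, Plxnc1, Sema7a and Sema4f lie under that level. With a 1.5-fold minimum, 1 member was higher, the semaphorin Sema4f, and 0 plexins and neuropilins were higher, since Nrp2 and Sema4b changed less. By the normal q, 3 members were lower (1 semaphorin) and 0 members were higher, that is 0 semaphorins and 0 plexins and neuropilins. In the lists, 1 co-receptor, 0 VEGF partners and 1 effector were then lower and 0 VEGF partners and 0 effectors higher. The cause of the gap between the normal q and the deposited q was not tested. A minimum of 1 FPKM, which all tested members met, left all counts of members as they were. Recentring shifted each log2 fold change by 0.01 and kept the deposited q. It therefore could not change which members were called. The median log2 fold changes of all 20 semaphorins and all 11 receptors, with 1 FPKM added, were -0.01 and 0.02 and moved by less than the members' implied standard errors with other pseudocounts. No direction turned, but all of these alternatives start from the same FPKM value per genotype. Directions were therefore not put to a test. Depth is unknown, and Nrp1 and then Sema4f have the widest implied standard errors among the tested members.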
